A study of Mus musculus with 15 samples.

Results

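Delta-cell genes and somatostatin receptors were followed in sorted mouse islet cells through 8 genes: Hhex, Casr, Ghsr, Lepr, Sstr1, Sstr2, Sstr3 and Sstr5. The genes were listed by name, with earlier results of these data known. Each was read by its only single-symbol transcript cluster, so 8 of the 19938 genes on the arrays are described. The study placed RNA of islet cells from mice of mixed B6 and BALB/C background on 15 Affymetrix Mouse Gene 1.0 ST arrays, and its title concerns the transcription factor Pdx1 as a repressor of alpha-cell genes in beta cells. 5 arrays are labelled Pdx1-deficient (PKO), described as reprogrammed cells and, per the design text, taken 5 days after tamoxifen. 5 arrays are labelled alpha cells with the genotype RIP-CreER, Pdx1fl/+, RosaYFP, and 5 are labelled beta cells with the genotype glucagon-Cre, RosaYFP. Both controls were sorted by YFP from mice 2 months old. These genotypes are the reverse of the cells in which an insulin-promoter and a glucagon-promoter driver normally act, and groups were taken from the titles. As labelled, the alpha genotype holds 1 floxed Pdx1 allele, and with the drivers in doubt, which control group carried that allele is in doubt too. The alleles and the sort of the PKO cells, any tamoxifen given to controls, and whether arrays of a group came from separate animals were not stated in the sources at hand. The p-values therefore cover only the spread among arrays of a group, which can be technical. That spread was pooled over all 3 groups, so a comparison of 2 groups also carries the spread of the third.

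Delta cells are the islet cells that secrete somatostatin, a peptide that restrains both insulin and glucagon release. Somatostatin acts on neighbouring cells through Gi-coupled receptors encoded by the Sstr genes, which lower cyclic AMP, open GIRK potassium channels and dampen calcium channels and exocytosis. In mice the homeobox factor Hhex maintains delta cells, and the ghrelin receptor Ghsr lets ghrelin stimulate them. In rodent islets Sstr2 is known as the receptor of alpha cells, while Sstr3 and Sstr5 are known from beta cells.

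Values are the deposited signals, taken as log2 from their range since the sources state no log base. Pdx1 itself read 9.12, 7.83, 7.68, 6.53 and 7.59 in arrays labelled Pdx1-deficient 1 to 5, 7.27 to 8.21 in alpha arrays and 8.85 to 9.33 in beta arrays, so the array labelled Pdx1-deficient 1 lay at the beta level. Arrays labelled Pdx1-deficient minus beta differed by -1.39 for Pdx1 (limma adjusted p = 0.0575) and by -1.74 without that array (limma adjusted p = 0.00617), and whether its probes lie in the deleted part is not known here. Of the 8 measured beta-cell markers 5 were lower in alpha than in beta arrays, and of the 6 measured alpha-cell markers 3 were higher (limma, adjusted p under 0.05 over all genes). In arrays labelled Pdx1-deficient compared with beta arrays 1 of the 8 was lower and 0 of the 6 higher by the same test. Of all genes 0.928% passed as lower and 0.16% as higher there. The 6-gene alpha marker mean was 9.12 to 9.52 in arrays labelled Pdx1-deficient, 9.32 in alpha array 2 and 10.01 to 10.20 in alpha arrays 1, 3, 4 and 5, against 9.02 to 9.22 in beta arrays, so alpha array 2 stood apart. The 8-gene beta marker mean reached 10.33 in array 1 labelled Pdx1-deficient, inside the beta range, and 8.95 to 9.53 in arrays 2 to 5 of that label, 8.62 to 9.48 in alpha and 10.20 to 10.52 in beta arrays. The 11-gene acinar marker mean was 10.94 in alpha array 5 and 5.84 to 6.83 in the other 14 arrays. The 7-gene stromal marker mean was 5.89 to 6.13 in arrays labelled Pdx1-deficient, 6.11 to 6.51 in alpha arrays 1, 3, 4 and 5 and 5.67 in alpha array 2, against 5.58 to 5.87 in beta arrays. 1 stromal marker, Rgs5, passed between alpha and beta arrays (difference 1.07, limma adjusted p = 0.0365). The duct, endothelial and leukocyte means overlapped between all groups. Transcripts of islet hormones were high in all 15 arrays, whatever their label: Sst read 10.83 to 12.57, Gcg 12.15 to 12.87, Ins2 11.77 to 12.12 and Ppy 12.01 to 12.86. Array medians over genes lay between 6.07 and 6.19, but the lower quartile over all clusters was 4.668 to 4.805 in arrays labelled Pdx1-deficient and 4.659 to 4.76 in alpha arrays, above 4.555 to 4.658 in beta arrays. The upper quartile was 7.236 to 7.365 in arrays labelled Pdx1-deficient, 7.245 to 7.358 in alpha and 7.345 to 7.4 in beta arrays. Beyond the values given below without single arrays, the part of these other-cell transcripts in the results was not tested.

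Between alpha and beta arrays 2 of the 8 genes passed the threshold (limma, Benjamini-Hochberg adjusted p under 0.05 over all genes), Casr and Sstr3, both lower in alpha arrays, where 4.04% of all genes passed and 3.15% passed as lower. An unadjusted p under 0.05 was seen for 3 of the 8 and for 20.7% of all genes. In the arrays labelled Pdx1-deficient, compared with beta arrays, 0 of the 8 passed by limma and 2 had an unadjusted p under 0.05, where 1.09% and 21.8% of all genes did. Against alpha arrays 0 passed and 3 had an unadjusted p under 0.05, where 0% and 6% of all genes did. The groups did not overlap for 0 of the 8 genes in either of these comparisons, against 5.96% and 0.637% of all genes. The median difference over the 8 genes was -0.00 for arrays labelled Pdx1-deficient minus beta (all genes 0.06), 0.08 for alpha minus beta (all genes 0.04) and -0.01 for arrays labelled Pdx1-deficient minus alpha (all genes 0.02). When alpha array 2 and the array labelled Pdx1-deficient 1 were left out, 3 of the 8 genes passed between alpha and beta arrays, Sstr2 being the third, where 7.15% of all genes passed, and 0 passed by limma in the other comparisons (2 and 3 at an unadjusted p under 0.05), where 3.14% and 0.888% of all genes passed. These 2 arrays stood out by the Pdx1 and marker values of these same data, so leaving them out is not independent of the values. The 3 comparisons share arrays and are given side by side.

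**Figure D1:**
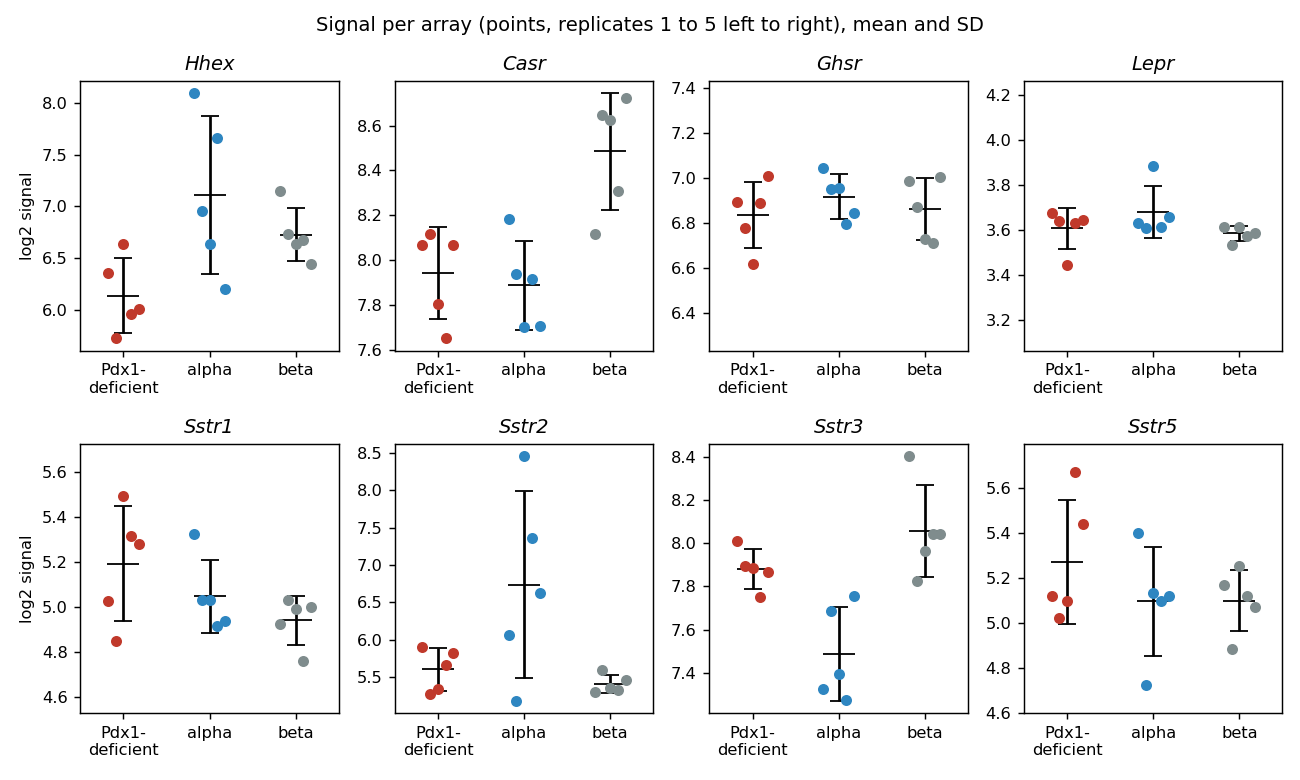
Log2 signal of the 8 genes (vertical axis, own scale per panel) in each of 15 arrays by group, with points for arrays and bars for mean and SD (n = 5). Casr sat highest in beta arrays, Sstr3 lowest in alpha arrays, and Sstr2 spread from 5.18 to 8.46 among alpha arrays.

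Hhex, the delta-cell homeobox gene, was lowest in the arrays labelled Pdx1-deficient and most spread out in alpha arrays. It read 6.35, 5.72, 6.64, 5.96 and 6.01 in arrays labelled Pdx1-deficient 1 to 5. Alpha arrays 1 to 5 read 8.09, 6.96, 6.64, 7.66 and 6.20, and beta arrays 7.15, 6.74, 6.64, 6.67 and 6.44. The 4 arrays labelled Pdx1-deficient other than array 3 lay below every beta array, array 3 shared the value of beta array 3, and the alpha range enclosed the beta range. The difference was -0.59 for arrays labelled Pdx1-deficient minus beta (SE 0.29, 95% interval -1.22 to 0.04, limma adjusted p = 0.251), 0.38 for alpha minus beta (SE 0.29, limma adjusted p = 0.472) and -0.98 for arrays labelled Pdx1-deficient minus alpha (SE 0.29, limma adjusted p = 0.456). None of these 3 differences passed. With those labelled Pdx1-deficient 1 and alpha 2 left out they were -0.65, 0.42 and -1.07 (limma adjusted p = 0.248, 0.448 and 0.288). With only the 2 groups fitted, arrays labelled Pdx1-deficient minus beta had a limma unadjusted p of 0.00737 (0.0627 in the main fit). Its limma adjusted p was then 0.127. Leaving out 1 array moved alpha minus beta from 0.14 (without alpha array 1, limma adjusted p = 0.826) to 0.61 (without alpha array 5, limma adjusted p = 0.245). In order, the group means were 7.11 in alpha, 6.73 in beta and 6.14 in arrays labelled Pdx1-deficient, with no neighbours shown to differ.

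Delta-cell transcripts outside the 8 were read beside Hhex. Sst, the somatostatin gene, averaged 11.61 ± 0.68 in arrays labelled Pdx1-deficient, 12.13 ± 0.54 in alpha and 12.08 ± 0.32 in beta arrays (SD, n = 5 each). It was lowest in arrays labelled Pdx1-deficient 4 and 5 (11.02 and 10.83) and in alpha array 5 (11.30), which also had the lowest Hhex signal of the alpha group. Alpha array 5 held the high acinar marker mean (10.94) as well, and the part of acinar RNA in these values was not tested. Rbp4, a retinol carrier gene known from mouse delta cells, averaged 10.27 ± 0.63 in arrays labelled Pdx1-deficient, 11.28 ± 0.40 in alpha and 10.24 ± 0.32 in beta arrays, and rose in alpha compared with beta arrays (difference 1.04, limma adjusted p = 0.0462). As a description over 15 arrays that share platform and groups, Hhex had a Pearson correlation of 0.69 with Sst and 0.60 with Rbp4. After group means were removed these were 0.61 and 0.43. For Ghsr, the other delta marker among the 8, they were 0.01 and 0.06, or -0.10 and -0.23 after group means were removed. The mean of the 4 delta markers, of which Hhex and Ghsr are 2, ran from 8.36 to 9.18 in arrays labelled Pdx1-deficient, 8.90 to 9.81 in alpha and 8.77 to 9.34 in beta arrays. The part of delta-cell RNA in the Hhex values was not tested, and in such bulk samples fewer cells of a type and less RNA per cell cannot be told apart.

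**Figure D2:**
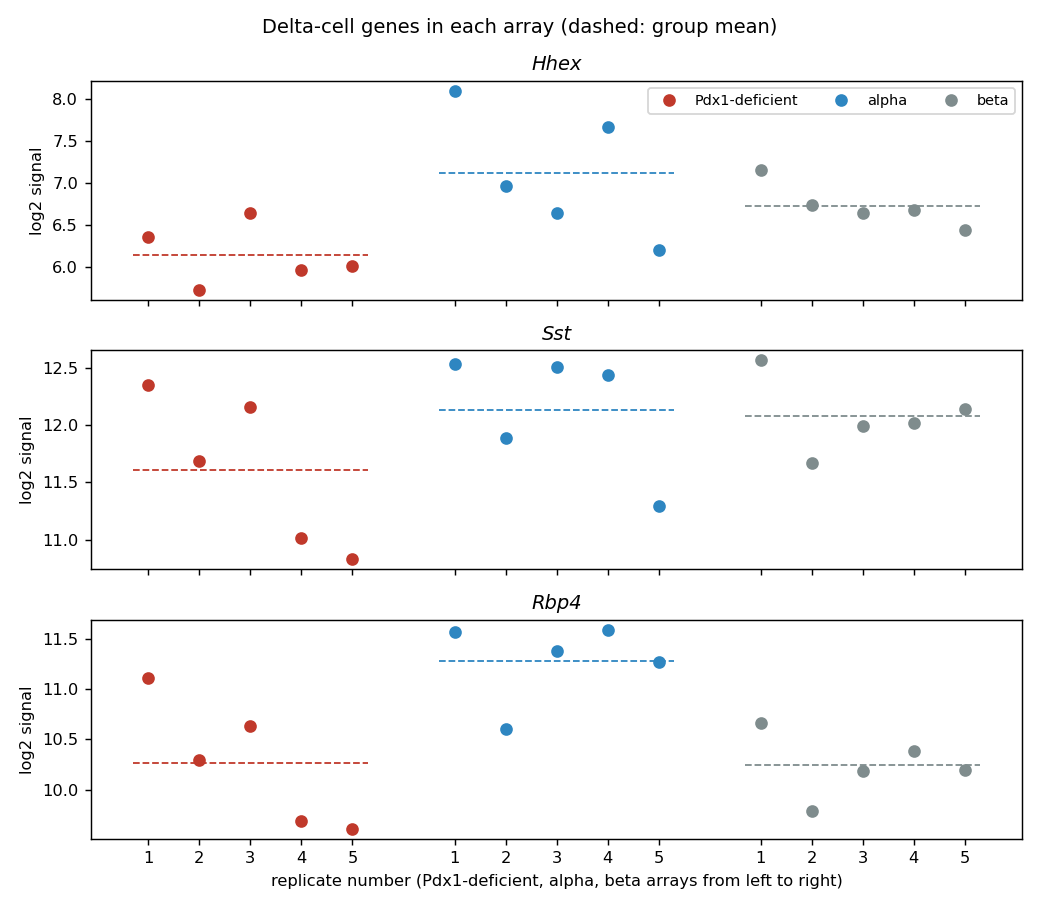
Log2 signal (vertical axes) of Hhex, Sst and Rbp4 in each array (horizontal axis, replicates 1 to 5 of the 3 groups), with dashed group means. In alpha array 5 Hhex and Sst had the lowest signals of their group, 6.20 and 11.30, while Rbp4 read 11.27 there. That array also had the highest acinar marker mean.

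Ghsr, the ghrelin receptor gene, differed little between groups. It read 6.62 to 7.01 in arrays labelled Pdx1-deficient, 6.79 to 7.04 in alpha and 6.71 to 7.01 in beta arrays, and all 3 ranges overlapped. The largest of its differences was -0.08 for arrays labelled Pdx1-deficient minus alpha (95% interval -0.27 to 0.11, limma adjusted p = 0.976). For alpha minus beta the interval ran from -0.14 to 0.25, and for arrays labelled Pdx1-deficient minus beta from -0.22 to 0.17, with a sign that turned under quantile normalization. Lepr, which encodes the receptor of the adipose hormone leptin, lay below the 25th percentile of genes in 15 of 15 arrays, at 3.44 to 3.88. How much of so dim a signal is background was not tested. Its differences of 0.02 (arrays labelled Pdx1-deficient minus beta), 0.09 (alpha minus beta) and -0.07 (arrays labelled Pdx1-deficient minus alpha) did not pass, and the first turned sign under both other scalings.

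Casr, which encodes the receptor that senses extracellular calcium, was lower in alpha than in beta arrays. Arrays labelled Pdx1-deficient 1 to 5 read 8.07, 8.12, 7.80, 7.65 and 8.07. Alpha arrays read 8.18, 7.94, 7.70, 7.91 and 7.70, and beta arrays 8.12, 8.65, 8.62, 8.31 and 8.72. In beta arrays 2 to 5 Casr was above every array of the other groups, while beta array 1 lay inside the alpha range and held exactly the value of the array labelled Pdx1-deficient 2. In alpha compared with beta arrays Casr fell by 0.60 (SE 0.14, 95% interval -0.89 to -0.31, limma adjusted p = 0.027), to 7.89 ± 0.20 in alpha, against 8.48 ± 0.26 in beta arrays (SD, n = 5 each), or 0.661 of the beta signal. Arrays labelled Pdx1-deficient averaged 7.94 ± 0.20 (SD, n = 5), a difference from beta of -0.54 (SE 0.14, 95% interval -0.84 to -0.25) that did not pass (limma adjusted p = 0.0645), or 0.686 of the beta signal. Arrays labelled Pdx1-deficient minus alpha differed by 0.05 (95% interval -0.24 to 0.35, limma adjusted p = 0.994).

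The Casr call for alpha minus beta was lost without beta array 2, 3 or 5 or alpha array 3, 4 or 5 (limma adjusted p from 0.0535 to 0.0751), and with quantile normalization applied again (difference -0.40, limma adjusted p = 0.16). Without the arrays labelled Pdx1-deficient 1 and alpha 2, Casr differed by -0.58 between arrays labelled Pdx1-deficient and beta (limma adjusted p = 0.0597) and by -0.61 between alpha and beta (limma adjusted p = 0.0304). With array medians subtracted, the difference between arrays labelled Pdx1-deficient and beta passed (-0.59, limma adjusted p = 0.0481).

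**Figure D3:**
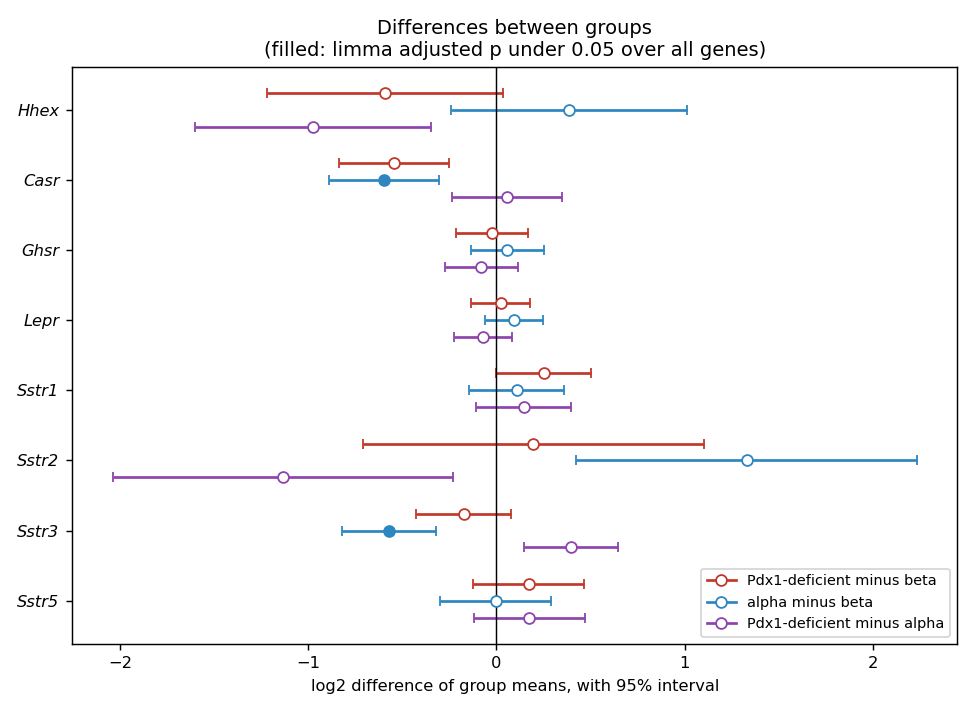
Log2 difference of group means (horizontal axis) with 95% intervals for the 8 genes in the 3 comparisons; filled points passed limma's adjusted p of 0.05 over all genes. The filled points are Casr and Sstr3 for alpha minus beta, at -0.60 and -0.57.

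Among the receptors for somatostatin, Sstr3 and Sstr2 differed most between alpha and beta arrays, in opposite directions. Promoter sequences are shown for these receptors and for Casr, the genes with differences of at least 0.5 between alpha and beta arrays. Each line is the 250 bases before the annotated start in RefSeq, build GRCm38.p6, written 5′ to 3′ on the gene's strand (6 of the 8 genes had an entry). Capitals mark the cyclic AMP response element TGACGTCA, the only match of the searched motifs in these windows.
Sstr2, chr11:113619077-113619326, plus strand: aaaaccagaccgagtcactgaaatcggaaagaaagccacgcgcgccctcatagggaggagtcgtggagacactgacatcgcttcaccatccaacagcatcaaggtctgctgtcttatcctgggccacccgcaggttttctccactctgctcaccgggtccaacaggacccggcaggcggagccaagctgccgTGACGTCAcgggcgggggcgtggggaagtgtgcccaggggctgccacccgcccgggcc
Sstr3, chr15:78544346-78544595, minus strand, the first of 2 listed starts: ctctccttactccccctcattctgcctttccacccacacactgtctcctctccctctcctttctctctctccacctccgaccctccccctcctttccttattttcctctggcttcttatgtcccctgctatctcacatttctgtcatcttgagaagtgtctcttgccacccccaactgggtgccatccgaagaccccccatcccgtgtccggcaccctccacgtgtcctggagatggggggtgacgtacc
Casr, chr16:36562135-36562384, minus strand: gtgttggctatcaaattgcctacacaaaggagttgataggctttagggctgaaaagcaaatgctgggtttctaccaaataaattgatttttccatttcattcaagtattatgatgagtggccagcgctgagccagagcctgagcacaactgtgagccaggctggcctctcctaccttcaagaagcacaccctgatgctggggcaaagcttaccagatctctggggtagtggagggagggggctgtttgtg
The motifs searched on both strands were TGACGTCA and the homeodomain sequence TAATTA, neither of which overlaps the other. TGACGTCA is in 1.55% and TAATTA in 4.84% of the 32851 RefSeq promoter windows of the same length. In Sstr2 the element begins 58 bases before the start. The same element lies 48 bases before the start of Sst, where it is the well-known CREB site. A match is a description of the letters and not evidence of binding.

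Sstr3, a receptor gene known from the primary cilia of mouse beta cells, was lower in alpha arrays and not shown to differ in arrays labelled Pdx1-deficient. It read 8.01, 7.90, 7.88, 7.75 and 7.87 in arrays labelled Pdx1-deficient 1 to 5. Alpha arrays read 7.33, 7.69, 7.39, 7.27 and 7.76, and beta arrays 8.40, 7.83, 7.96, 8.04 and 8.04. All 5 alpha arrays lay below all 5 beta arrays, as groups did not overlap for 6.34% of all genes in either direction, and Sstr3 was the 1 of the 8 genes whose groups did not overlap. It fell by 0.57 in alpha compared with beta arrays (SE 0.12, 95% interval -0.82 to -0.32, limma adjusted p = 0.0169), to 7.49 ± 0.22 in alpha, against 8.06 ± 0.21 in beta arrays (SD, n = 5 each), or 0.674 of the beta signal.

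Arrays labelled Pdx1-deficient averaged 7.88 ± 0.09 for Sstr3 (SD, n = 5) and differed from beta by -0.17 (SE 0.12, 95% interval -0.42 to 0.08, limma adjusted p = 0.375), or by 0.024 with quantile normalization applied again. They differed from alpha by 0.39 (SE 0.12, 95% interval 0.14 to 0.64), which was 1 of the 3 differences with an unadjusted p under 0.05 in that comparison but did not pass (limma adjusted p = 0.449). Only array 4 labelled Pdx1-deficient, at 7.75, reached into the alpha range. In order, Sstr3 averaged 8.06 in beta, 7.88 in arrays labelled Pdx1-deficient and 7.49 in alpha arrays, and neither neighbouring pair passed. Without the arrays labelled Pdx1-deficient 1 and alpha 2 the alpha minus beta difference was -0.62 (limma adjusted p = 0.00955), and the call held without each of the 15 arrays in turn. It was lost with quantile normalization applied again (difference -0.40, limma adjusted p = 0.0696).

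Sstr2, the alpha-cell receptor of rodents, had its high signals in alpha arrays, but these arrays differed widely among themselves. It read 5.91, 5.27, 5.34, 5.66 and 5.82 in arrays labelled Pdx1-deficient 1 to 5. Alpha arrays read 6.06, 5.18, 8.46, 7.36 and 6.63, and beta arrays 5.30, 5.59, 5.36, 5.33 and 5.46. Alpha arrays 1, 3, 4 and 5 lay above every array of the other groups, and alpha array 2 below every one of them. The stromal marker mean was likewise highest in alpha array 3 (6.51) and lowest of the alpha group in array 2 (5.67). In alpha arrays 1, 4 and 5 it read 6.34, 6.11 and 6.27, the reverse of their Sstr2 order. The alpha marker mean was also highest in alpha array 3 (10.20) and lowest of that group in array 2 (9.32). The part of either marker set in the Sstr2 values was not tested. The group averaged 6.74 ± 1.25 in alpha, against 5.41 ± 0.12 in beta arrays (SD, n = 5 each), a difference of 1.33 (SE 0.42, 95% interval 0.42 to 2.23), or 2.51-fold, that did not pass (limma adjusted p = 0.0923).

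Without alpha array 2, whose alpha marker mean was also the lowest of its group, the Sstr2 difference between alpha and beta arrays was 1.72 and passed (limma adjusted p = 0.00868), as it did without the pair of arrays labelled Pdx1-deficient 1 and alpha 2 (limma adjusted p = 0.011). Alpha array 2 also held the lowest Sstr2 signal of all 15 arrays, so leaving it out raises the alpha minus beta difference by arithmetic alone. Arrays labelled Pdx1-deficient averaged 5.60 ± 0.28 for Sstr2 (SD, n = 5). They differed from beta by 0.20 (95% interval -0.71 to 1.10, limma adjusted p = 0.792) and from alpha by -1.13 (95% interval -2.04 to -0.23, limma adjusted p = 0.678). The interval against beta includes the wide spread of alpha arrays. With alpha arrays left out of the fit, the limma adjusted p against beta was 0.383. Without the same pair the difference from alpha was -1.60 (limma adjusted p = 0.073). The order was 6.74 in alpha, 5.60 in arrays labelled Pdx1-deficient and 5.41 in beta arrays, with neither neighbouring pair past the threshold.

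Sstr1 and Sstr5, which encode further somatostatin receptors, were dim throughout and passed no comparison. Sstr1 lay below the median of genes in 15 of 15 arrays and below the 25th percentile in 8. It averaged 5.19 ± 0.26 in arrays labelled Pdx1-deficient, 5.05 ± 0.16 in alpha and 4.94 ± 0.11 in beta arrays (SD, n = 5 each). Arrays labelled Pdx1-deficient 3, 4 and 5 (5.49, 5.32 and 5.28) lay above every beta array (4.76 to 5.03). The difference was 0.25 (SE 0.12, limma adjusted p = 0.229) for arrays labelled Pdx1-deficient minus beta, 0.11 for alpha minus beta and 0.14 for arrays labelled Pdx1-deficient minus alpha. Sstr5 averaged 5.27 ± 0.28 in arrays labelled Pdx1-deficient, 5.10 ± 0.24 in alpha and 5.10 ± 0.14 in beta arrays. Its median was 5.12 in every group, and the alpha minus beta difference was -0.00 (95% interval -0.30 to 0.29, limma adjusted p = 0.989). Arrays labelled Pdx1-deficient 4 and 5 read 5.67 and 5.44, above every alpha and beta array, and the group differed from beta by 0.17 (limma adjusted p = 0.455). In arrays 4 and 5 of that label the 25th percentile of genes was the highest of all 15 (5.208 and 5.214), against 4.967 to 5.007 in beta arrays. Their mean correlation with their own group was the lowest (0.9366 and 0.9401). Array 3 of that label, with the highest Sstr1 signal, had a 25th percentile of 5.024. The part of this raised low end in the Sstr1 and Sstr5 values was not tested. Sstr4, the remaining receptor gene and no member of the 8, averaged 6.77 ± 0.22 in arrays labelled Pdx1-deficient, 6.72 ± 0.12 in alpha and 6.52 ± 0.16 in beta arrays and also passed no comparison.

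**Figure D4:**
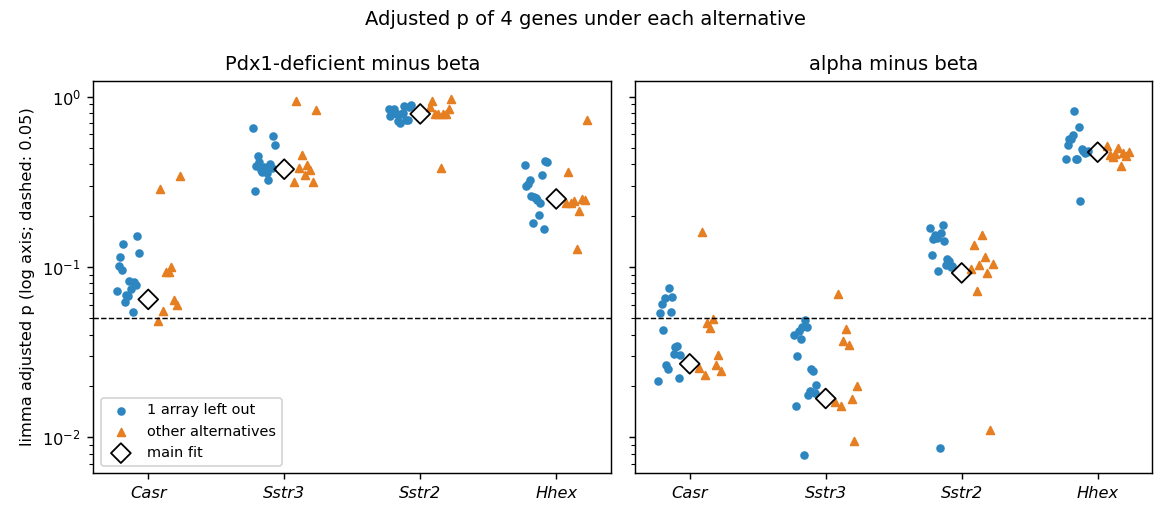
Limma adjusted p (log axis) of 4 genes in the main analysis (diamonds), with each array left out (circles) and under the other alternatives (triangles), against the threshold of 0.05 (dashed). For alpha minus beta, Sstr3 stayed under the line except at 0.0696, and Sstr2 dropped under it at 0.00868 and 0.011.

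The wider pathways of these receptors were read from 9 lists with 78 genes besides the 8, of which 77 were measured. The lists were written with earlier results of these data known, so their counts beside the all-gene shares are a description. In arrays labelled Pdx1-deficient compared with beta arrays 0 of the 77 rose and 2 fell, where 0.16% of all genes rose and 0.928% fell. In alpha compared with beta arrays 3 rose and 6 fell, where 0.893% rose and 3.15% fell. Between arrays labelled Pdx1-deficient and alpha 0 passed by limma, and 13 of the 77 had an unadjusted p under 0.05, where 6% of all genes did. Without the arrays labelled Pdx1-deficient 1 and alpha 2 the passing genes numbered 3 for arrays labelled Pdx1-deficient minus beta, 15 for alpha minus beta and 2 for arrays labelled Pdx1-deficient minus alpha, where 3.14%, 7.15% and 0.888% of all genes passed. The calls rested on single arrays to unequal degrees. For alpha minus beta, Ptpn11 and Adcy9 passed in 15 of 15 fits with 1 array left out, Ffar4 in 14, Ucn3 in 12, Flna in 9, Grk5 in 8, Gng12 and Gng4 in 7 and Rbp4 in 4. For arrays labelled Pdx1-deficient minus beta, Ucn3 passed in 5 and Ptpn11 in 4 of those 15, and both calls were lost without any 1 of beta arrays 1, 3, 4 or 5, alpha array 4 or arrays labelled Pdx1-deficient 2 to 5. With quantile normalization applied again, 0 of the 77 passed for arrays labelled Pdx1-deficient minus beta (12 had an unadjusted p under 0.05), and 5 rose and 2 fell for alpha minus beta.

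Among 9 genes of delta cells or of signals that reach them, Ucn3, the beta-cell peptide that stimulates somatostatin release, fell in arrays labelled Pdx1-deficient (-2.28 against beta, limma adjusted p = 0.0389) and in alpha arrays (-2.27 against beta, limma adjusted p = 0.0203). Ffar4, a long-chain fatty acid receptor known from mouse delta cells, rose in alpha arrays to 6.34 ± 0.49, against 4.92 ± 0.07 in beta arrays (SD, n = 5 each; limma adjusted p = 0.0182). It averaged 5.83 ± 0.75 in arrays labelled Pdx1-deficient, a difference from beta of 0.91 that did not pass (limma adjusted p = 0.119). Rbp4 was the other gene of this list that rose in alpha arrays, and Sst did not differ past the threshold from beta arrays in either group (limma adjusted p = 0.361 for arrays labelled Pdx1-deficient, 0.932 for alpha). In the list of ligands and Sstr4, 0 of 3 passed by limma in any comparison (2 had an unadjusted p under 0.05 for arrays labelled Pdx1-deficient minus beta, 0 for alpha minus beta and 0 for arrays labelled Pdx1-deficient minus alpha), with Cort, the cortistatin gene, at 0.28 for arrays labelled Pdx1-deficient minus beta (limma adjusted p = 0.181).

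Of 12 G protein genes that couple somatostatin receptors, the gamma subunit genes Gng12 (-1.31, limma adjusted p = 0.0365) and Gng4 (-0.56, limma adjusted p = 0.0413) fell in alpha compared with beta arrays, and 0 passed by limma in arrays labelled Pdx1-deficient compared with beta (1 at an unadjusted p under 0.05), where Gng12 differed by -0.69 and Gng4 by 0.12. Of 8 GIRK and calcium channel genes 0 passed by limma, and 1, 3 and 2 had an unadjusted p under 0.05 in the same 3 comparisons. Kcnj3, a GIRK subunit gene, averaged 6.86 in alpha, against 5.89 in beta arrays (difference 0.97, limma adjusted p = 0.0773). Of 8 adenylyl cyclase genes Adcy9 alone fell in alpha compared with beta arrays (-0.59, limma adjusted p = 0.0167). It differed by -0.36 in arrays labelled Pdx1-deficient (limma adjusted p = 0.125).

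Of 12 genes that regulate or relay these receptors, Ptpn11, which encodes the tyrosine phosphatase SHP-2, fell in both groups compared with beta arrays. It averaged 8.92 ± 0.13 in arrays labelled Pdx1-deficient, 8.66 ± 0.25 in alpha and 9.53 ± 0.27 in beta arrays (SD, n = 5 each), with limma adjusted p = 0.0476 for arrays labelled Pdx1-deficient minus beta and 0.00524 for alpha minus beta. Grk5, a G protein-coupled receptor kinase gene, fell by 1.72 in alpha compared with beta arrays (limma adjusted p = 0.035). Of 12 leptin signalling genes 0 passed by limma (1, 4 and 1 at an unadjusted p under 0.05 in the same 3 comparisons), and of 8 ghrelin signalling genes likewise 0 (0, 2 and 0). Ptpn1, a phosphatase gene that limits leptin signalling, differed by -0.57 for arrays labelled Pdx1-deficient minus beta (limma adjusted p = 0.174) and by -0.76 for alpha minus beta (limma adjusted p = 0.0767). Ghrl, the ghrelin gene, differed by 0.41 for alpha minus beta (limma adjusted p = 0.167). Of 11 measured genes of calcium-sensing receptor signalling, the filamin gene Flna rose by 0.35 in alpha compared with beta arrays (limma adjusted p = 0.0309).

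**Figure D5:**
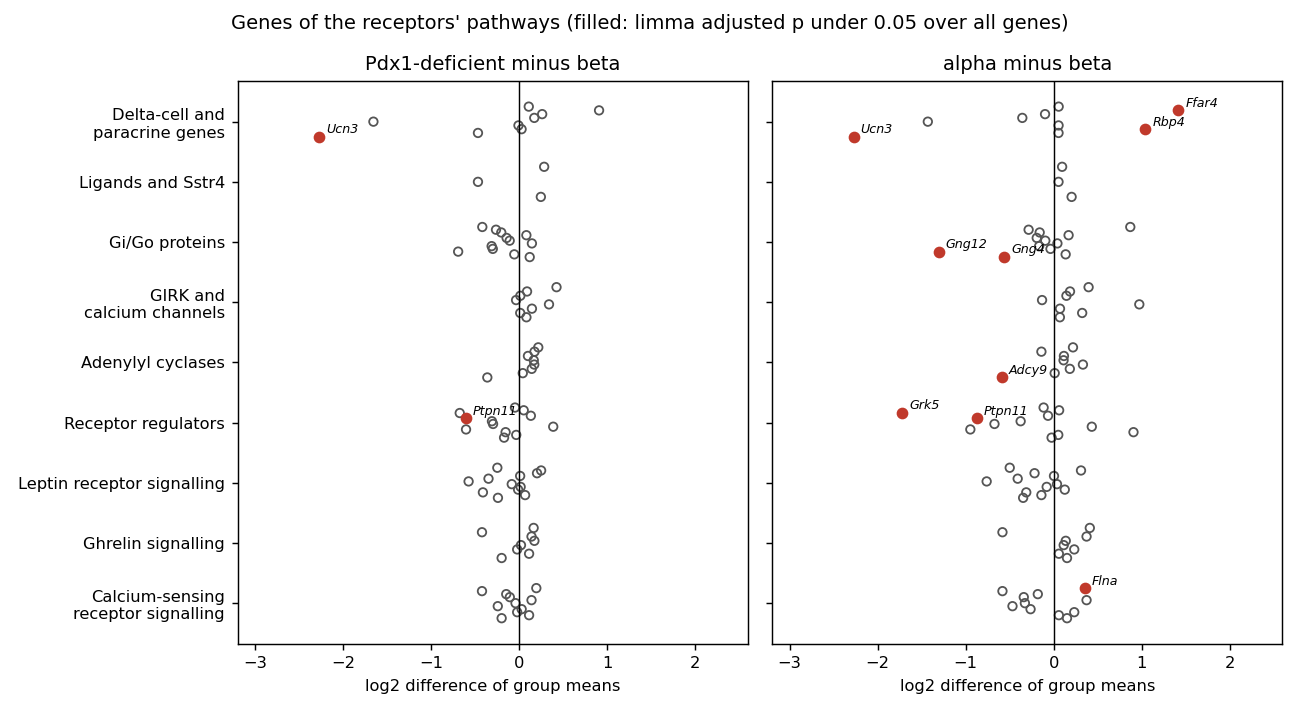
Log2 difference of group means (horizontal axis) for the genes of 9 pathway lists (rows), for arrays labelled Pdx1-deficient minus beta on the left and alpha minus beta on the right; filled, named points passed limma's adjusted p of 0.05 over all genes. Ucn3 and Ptpn11 passed on both sides, at -2.28 and -0.61 on the left and -2.27 and -0.88 on the right.

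Genes whose signals ran most like a member were ranked by Pearson correlation over the 15 arrays, which share platform and groups, for the 4 members with a mean above the median of genes. This is a description, and the second value of each pair is the correlation after group means were removed. For Casr they were Chac1 (0.90 and 0.82), Srp9 (0.88 and 0.65) and the endoplasmic reticulum chaperone gene Hyou1 (0.86 and 0.52). Sstr3 ran most like Cib1 (0.90 and 0.77), Phyhip (0.88 and 0.84) and Glmp (0.88 and 0.72). Hhex ran most like Smcr8 (0.87 and 0.83), Eif1b (0.86 and 0.76) and the ETS factor gene Ehf (0.82 and 0.73). For Ghsr they were Kcnk15 (0.91 and 0.93), Slc12a4 (0.90 and 0.91) and Foxb1 (0.89 and 0.88). For Sstr2, added after its values were seen, they were the vasopressin receptor gene Avpr1b (0.91 and 0.88), Klf4 (0.91 and 0.87) and Epb41l2 (0.91 and 0.84).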

How the data were processed

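Per the labels' protocols, labelled cDNA of total islet-cell RNA was hybridised to Mouse Gene 1.0 ST arrays. The deposited values are log2 signals, 1 per transcript cluster and array; the log base was read from their range of 2.11 to 13.45. Affymetrix Expression Console is the tool listed, unversioned, per the submitters' processing notes; how probes were summarized, background correction and the build were not stated in the sources at hand. Of 35556 clusters, 21789 had 1 gene symbol in the platform annotation, 1621 several and 12146 none. 21698 of the first matched the RefSeq gene table by gene ID, and 0 symbols changed. Each of 19938 genes was read by its cluster with the highest mean. Depth has no counterpart on arrays, and the number per group, 5, limits the precision. No 2 arrays were identical.

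Groups were compared with limma 3.58.1 (lmFit, eBayes) in R 4.3.3 on 3 group means over 15 arrays, with Benjamini-Hochberg adjustment over all genes and a threshold of 0.05, after a test on simulated data. Named genes were the 8 members, Pdx1, Sst, Rbp4, Gcg and Ins2, and of each list those past the threshold (up to 4) or else from the 2 with the largest differences; Ins1 had no single-symbol cluster. Members and lists were chosen with earlier results of these data known. Alternatives were other scalings, a filter on genes with a mean below the 25th percentile, other fits and left-out arrays.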

Additional observations from a re-analysis of the deposited data

Results flagged for a closer look

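Of 48 groups of 5 arrays (16 genes, 3 groups each), 3 held an array that exceeded Dixon's limit, and chance does this in about 1 in 20 groups. The measure is the gap to the nearest neighbour divided by the range of the group. For Lepr, the array labelled Pdx1-deficient 3 read 3.44, below 3.63 to 3.67 in the other 4 arrays of its group. Lepr in alpha array 3 read 3.88, above 3.61 to 3.66 in the other 4. Sstr1 in alpha array 1 read 5.33, above 4.92 to 5.03 in the other 4. Lepr lay below the 25th percentile of genes in 15 arrays and Sstr1 in 8.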

How the results depend on the processing

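Arrays give no read depth, and the precision rests on 5 arrays a group. Over all genes, 217 passed for arrays labelled Pdx1-deficient minus beta, but 4 with quantile normalization applied again, 121 with trended and robust moderation, 89 with only the 2 groups fitted, 8 with a replicate block, 626 without the pair of arrays labelled Pdx1-deficient 1 and alpha 2, and 2 without arrays labelled Pdx1-deficient 4 and 5, a pair chosen after seeing the data. The first pair likewise stood out by Pdx1 and marker values of these same data. Leaving out 1 array gave 0 (without array 5 labelled Pdx1-deficient) to 548 (without array 1), with 4, 69, 3 and 4 without beta arrays 1, 3, 4 and 5, and 21 and 1 without arrays 2 and 4 labelled Pdx1-deficient. For alpha minus beta 806 passed, but 483 with quantile normalization and 1425 without the first pair, and with 1 array left out 328 (without alpha array 3) to 1430 (without alpha array 2), with every other beta or alpha array except beta array 2 lowering it over 1.5 times. For arrays labelled Pdx1-deficient minus alpha 0 passed by limma (1197 at an unadjusted p under 0.05), but 1 with dim genes left out, 1 with trended moderation, 177 without the first pair, 1 without the second, and 0 to 145 (without alpha array 2) with 1 array left out. Higher calls were 22.1% of those for alpha minus beta and 42.2% with quantile normalization, and 14.7% and 50% for arrays labelled Pdx1-deficient minus beta. Of the 8 genes, the 2 calls for alpha minus beta became 0 with quantile normalization and 1 to 3 with 1 array left out, and the 0 for arrays labelled Pdx1-deficient minus beta became 1 with array medians subtracted. The labels name no shared animal or day behind a replicate number. Same-numbered arrays' deviations from their group means correlated between -0.12 and 0.11 for arrays labelled Pdx1-deficient and beta, -0.17 and 0.22 for arrays labelled Pdx1-deficient and alpha, and 0.005 and 0.22 for alpha and beta, where 5 of 5 were above 0 but 3 of 5 above 0.1, so the numbers were not taken as pairs. The replicate block left the counts of the 8 genes at 0, 2 and 0.

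For the 49 gene differences followed under the alternatives, 1032 values kept direction and call, 107 lost the call, 10 gained it and 21 changed sign. For arrays labelled Pdx1-deficient minus beta the sign changed for Ghsr (0.073 with quantile normalization, -0.067 to 0.031 with 1 array left out), Lepr (-0.023 with array medians subtracted, -0.062 with quantile normalization), Sstr3 (0.024 with quantile normalization), Sstr5 (-0.019) and Gng4 (-0.023), the last 2 without arrays labelled Pdx1-deficient 4 and 5. Sstr5 changed sign for alpha minus beta (-0.080 to 0.089 with 1 array left out, 0.089 without the first pair) and for arrays labelled Pdx1-deficient minus alpha (-0.015 without the second pair). Sst changed sign for alpha minus beta (-0.046 to 0.266 with 1 array left out). Pdx1 did so for arrays labelled Pdx1-deficient minus alpha (-0.45 to 0.19 with 1 array left out, 0.35 without the second pair). The cause was not tested.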

Other observations

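Some deposited values were exactly equal between arrays. Of the 35556 clusters, 10485 (29.5%) held the same value in at least 2 arrays. Hhex read 6.64 in replicate 3 of all 3 groups. Casr read 8.12 in the array labelled Pdx1-deficient 2 and in beta array 1. Lepr read 3.61 in alpha array 4 and in beta arrays 1 and 3. Sstr1 read 5.03 in alpha arrays 2 and 3 and in beta array 2. Sstr5 read 5.12 in the array labelled Pdx1-deficient 1, alpha array 5 and beta array 4.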
